A study of Homo sapiens with 4 samples.

Results

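CDC45, the GINS complex and the factors that start replication forks were followed in the cytoplasmic RNA of SUM159, an established human cell line from a triple-negative breast cancer. The genes were taken by name from a list of 10: CDC45, GINS1, GINS2, GINS3, GINS4, MCM10, RECQL4, TICRR, TOPBP1 and CDC7. Of these, 9 had rows in the intron files, with 127 introns in all, among 142206 introns of 15902 genes; GINS3 had no row and was not analysed here. The cells received H3B-8800, a small molecule that inhibits the spliceosome, or its vehicle DMSO for 12 hours, and each of the 2 groups had 2 libraries, described as biological duplicates. RNA came from the cytoplasmic fraction and was polyA-selected, so nuclear RNA and RNA without a tail are not part of these values. For each intron the files gave reads inside it (intronic reads) and allowed reads that span it (spliced reads) to be computed.

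Replication origins are first loaded with an inactive ring of MCM proteins. Firing turns that ring into the active CMG helicase by adding CDC45 and GINS, a complex of 4 small subunits. The kinase CDC7 phosphorylates the MCM ring, TICRR (also called treslin) and TOPBP1 bring CDC45 and GINS to it, RECQL4 takes part in the same step, and MCM10 is needed for the assembled helicase to unwind DNA. Most of these genes are expressed periodically in dividing cells, and several are targets of E2F transcription factors.

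Recovered totals were 58000000 to 64000000 reads per library. The intronic share of all reads counted at introns was 8.19% and 8.24% in the H3B-8800 libraries and 4.23% and 4.24% in the DMSO libraries, a rise that was shared by the whole series. All 6 mesenchymal genes listed for SUM159 (VIM, CD44, AXL, ZEB1, FN1 and SNAI2) were detected. Of the 10 listed markers of other cells that had rows, ESR1, PGR and CD3E were at 0 in all 4 libraries. The summed level of the 10 was 38.4 to 43.4 CPM with H3B-8800 and 42.8 to 44 CPM with DMSO. CPM is spliced reads scaled to a common library size, here with TMM factors, with 1 count for each intron a read spans. Most of that sum was ERBB2, at 33.4 and 31.2 CPM with H3B-8800 and 39.2 and 36.8 with DMSO. In every library the summed CPM of ERBB2 was above that of CD44 and ZEB1 of the mesenchymal list. These sums were not divided by the number of introns, so they do not rank the genes by RNA level. GATA3 and PECAM1 also had reads, at 1.88 to 4.99 CPM. Between 70.9% and 72.3% of the intronic counts above 0 were even in each library, as they would be with both mates counted, and reads are then not independent.

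Spliced reads of 7 of the 9 genes fell with H3B-8800 and those of the other 2 rose. The fallers were CDC45, RECQL4, GINS2, GINS4, TICRR, MCM10 and CDC7; the risers were GINS1 and TOPBP1. Across the 9468 genes tested, 32.7% passed as lower and 32.8% as higher (edgeR's quasi-likelihood test; p adjusted after Benjamini and Hochberg, threshold 0.05). The median log2 change was -0.77 over the 9 genes and 0.01 over all genes tested. At a change of at least 2-fold, 3 of the 9 were lower (CDC45, GINS2 and RECQL4), beside 10.7% of all genes, and 1 was higher (GINS1), beside 6.42%. When each gene was represented by the median over its introns in place of their sum, CDC45, GINS2 and RECQL4 passed as lower and GINS1 and TOPBP1 as higher. Fewer cells in a replicating state and less RNA per cell cannot be told apart in such bulk samples.

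CDC45, the subunit that joins the MCM ring and GINS into the helicase, had the largest fall of the 9. Its level was 39.5 and 36.3 CPM in the treated libraries and 198 and 194 CPM in those with DMSO. The groups lay far apart, and each pair of libraries was close. The log2 change was -2.37 ± 0.07 (SE; edgeR adjusted p = 8.54e-11), or 5.18-fold lower. The listed transcript is NM_001178010, with 15 introns at chr22:19480020-19520480 (hg38, plus strand, first to last intron). All 15 of its junctions were tested and all 15 were lower, by log2 changes from -2.94 at intron 11 to -1.82 at intron 1. At intron 10, for example, 70 and 76 spliced reads stood against 533 and 579.

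Of the 3 GINS subunits with rows, 2 fell and 1 rose. GINS2 went from 119 and 120 CPM with DMSO to 57.2 and 56.5 with H3B-8800. Its log2 change was -1.07 ± 0.07 (SE; edgeR adjusted p = 2.19e-08), and its 4 junctions (NM_016095, chr16:85678338-85688808, minus strand) lay between -1.08 and -0.93, all 4 lower. GINS4, a low gene, stood at 8.90 and 8.14 CPM with DMSO and 5.07 and 4.51 with H3B-8800, without overlap. Its log2 change was -0.83 ± 0.21 (SE; edgeR adjusted p = 0.00382). Only 5 of its 7 junctions (NM_032336, chr8:41529397-41541990, plus strand) had enough reads, and 1 of them, intron 7, passed as lower in edgeR's test. That call was lost with DESeq2 (adjusted p = 0.091) and without DMSO replicate 2 (0.121).

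GINS1 moved the other way. It stood at 13.6 and 13.4 CPM in the DMSO libraries and at 34.1 and 30.9 with H3B-8800, so that the groups did not overlap. The log2 change was 1.27 ± 0.11 (SE; edgeR adjusted p = 5.72e-07), or 2.40-fold higher. All 6 junctions of NM_021067 (chr20:25407896-25445922, plus strand) were higher in edgeR's test. The call at intron 4 was lost with DESeq2 (adjusted p = 0.126), with scaling to library totals (0.0769) and without DMSO replicate 1 (0.171). GINS1 and GINS2 are subunits of 1 complex, and their spliced reads per junction shifted against each other: GINS1 was 0.0767 and 0.0743 of GINS2 with DMSO and 0.398 and 0.364 with H3B-8800. The ratio of CDC45 to GINS1, also per junction, went from 5.81 in both DMSO libraries to 0.464 and 0.471.

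The rise of GINS1 was not even along the transcript. At intron 1, 57 and 58 spliced reads with H3B-8800 stood against 17 and 14 with DMSO, a log2 change of 2.21. At intron 6, the last, the counts were 80 and 89 against 61 and 51, a log2 change of 0.92. The smallest change was at intron 4, at 0.78, with 63 and 60 against 37 and 53. Intron 5 stood at 1.23, so the change did not decline steadily from 5′ to 3′. With DMSO the 5′ junctions of GINS1 thus carried far fewer reads than the 3′ ones, and with H3B-8800 the ends were closer. With the introns split in the middle, spliced reads of the 5′ part divided by those of the 3′ part were 0.420 and 0.381 with DMSO and 0.797 and 0.781 with H3B-8800. In a test of that ratio chosen after the junction values were seen, the log2 change for GINS1 was 0.98 ± 0.23 (SE; edgeR adjusted p = 0.0346). TOPBP1 also passed, at 0.39 ± 0.08, and none of the 9 passed as lower; of 6968 genes tested, 2.83% passed as higher and 0.732% as lower. Neither call held with DESeq2 (0 of 9 passed at an adjusted p under 0.05, 2 at an unadjusted one), nor when any 1 library was left out.

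**Figure D1:**
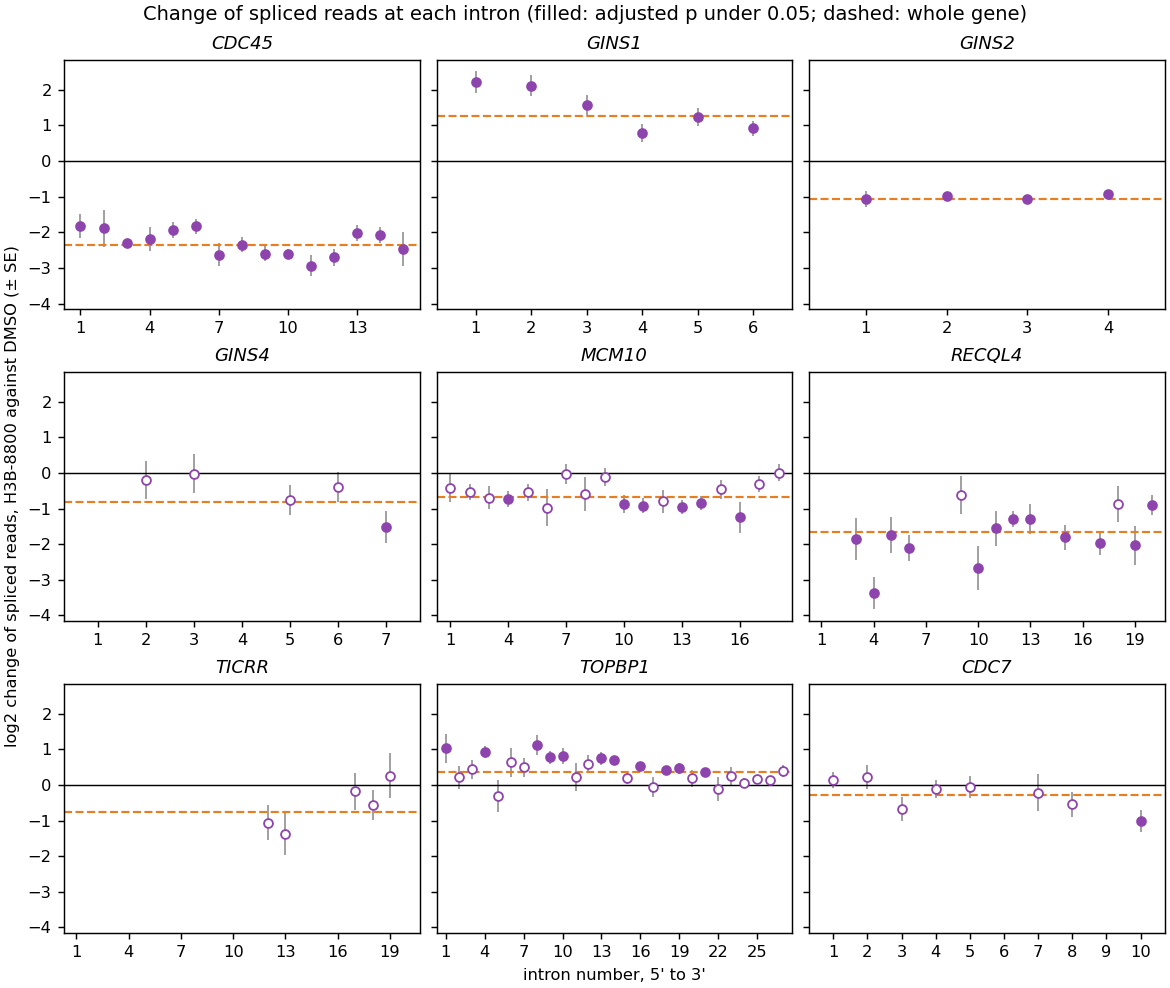
Log2 change of spliced reads (H3B-8800 against DMSO, ± SE) at each tested intron of the 9 genes, by intron number from 5′ to 3′; filled points passed the test and the dashed line is the whole gene. All 15 points of CDC45 lie between -2.94 and -1.82, while those of GINS1 lie between 0.78 at intron 4 and 2.21 at intron 1.

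The upstream 250 bases of 4 genes show what the promoters of CDC45, of 2 other genes that fell and of GINS1, which rose, hold. They are from the RefSeq promoter table (GRCh38.p14), in which 7 of the 9 genes matched. Capitals mark GGCGGGA and TTTGGCG, which resemble E2F sites, and CCAAT, the core of NF-Y sites, on either strand; in CDC45 the first and the second overlap. For CDC45, with 3 listed starts, the start nearest to intron 1 is shown.
CDC45 (chr22:19479670-19479919, plus strand): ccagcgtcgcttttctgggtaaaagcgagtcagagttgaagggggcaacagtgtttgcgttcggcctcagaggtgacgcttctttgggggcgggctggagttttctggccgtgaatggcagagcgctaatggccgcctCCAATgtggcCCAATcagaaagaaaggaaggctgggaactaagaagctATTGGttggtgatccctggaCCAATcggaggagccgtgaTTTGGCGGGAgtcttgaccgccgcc
GINS2 (chr16:85688955-85689204, minus strand): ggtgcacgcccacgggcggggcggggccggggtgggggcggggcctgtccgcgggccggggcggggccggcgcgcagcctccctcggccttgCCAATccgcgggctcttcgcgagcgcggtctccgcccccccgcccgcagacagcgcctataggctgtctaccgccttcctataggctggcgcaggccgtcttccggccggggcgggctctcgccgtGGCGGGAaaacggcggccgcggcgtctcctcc
MCM10 (chr10:13161308-13161557, plus strand): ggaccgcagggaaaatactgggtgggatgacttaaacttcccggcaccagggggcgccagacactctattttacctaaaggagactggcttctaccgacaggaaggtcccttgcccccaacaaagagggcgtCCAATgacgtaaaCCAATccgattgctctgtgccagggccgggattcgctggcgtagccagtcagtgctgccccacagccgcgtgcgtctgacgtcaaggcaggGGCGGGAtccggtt
GINS1 (chr20:25407423-25407672, plus strand): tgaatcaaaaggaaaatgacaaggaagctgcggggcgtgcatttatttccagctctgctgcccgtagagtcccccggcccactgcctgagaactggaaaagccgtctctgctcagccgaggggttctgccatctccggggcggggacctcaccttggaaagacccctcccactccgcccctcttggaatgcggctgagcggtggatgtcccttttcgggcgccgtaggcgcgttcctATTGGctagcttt

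A gene was counted where any of its listed starts held the letters. GGCGGGA was present upstream of CDC45, GINS2, MCM10 and CDC7, 4 of the 7 matched genes, and of 16% of all 27305 genes (13.5% of all 35116 promoters of that length). TTTGGCG was present in CDC45 and TICRR, and in 1.95% of all genes (1.59% of promoters). CCAAT was present in CDC45, GINS1, GINS2, MCM10 and TICRR, and in 37% of all genes (32% of promoters). The other 2 starts of CDC45 held neither GGCGGGA nor TTTGGCG. The GINS1 window held 1 CCAAT, on the opposite strand, and neither of the other letters; the TOPBP1 window held none of the 3. These are matches of letters only.

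MCM10 acts on the assembled helicase. Its level was 80.6 and 77.5 CPM with DMSO and 50.5 and 49.1 with H3B-8800. The libraries of a group lay close together, and the log2 change was -0.67 ± 0.07 (SE; edgeR adjusted p = 3.98e-06). Of its 18 junctions (NM_018518, chr10:13161607-13209226, plus strand), 17 had a change below 0 and 6 passed as lower. The extremes were intron 16, at -1.25, with 8 and 9 spliced reads against 26 and 25 (the call was lost with DESeq2, adjusted p = 0.182, and without either DMSO library, 0.1 and 0.0796), and intron 18, at 0.01, with 46 and 47 against 60 and 56.

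Among the factors that bring CDC45 and GINS to the origin, RECQL4 and TICRR fell and TOPBP1 rose. RECQL4, a RecQ-type helicase, stood at 41.5 and 40.2 CPM with DMSO and 11.5 and 14.3 with H3B-8800, a log2 change of -1.66 ± 0.12 (SE; edgeR adjusted p = 5.73e-08). Its 20 introns (NM_004260, chr8:144511556-144517700, minus strand) are short, from 65 to 410 bp with a median of 86.5 bp, and 12 of the 14 with enough reads passed as lower. The steepest was intron 4, 285 bp long, at -3.38, with 3 and 4 spliced reads against 45 and 49; the least changed was intron 9, at -0.62. TICRR stood at 15 and 11.6 CPM with DMSO and 7.52 and 8.06 with H3B-8800. Its log2 change was -0.77 ± 0.18 (SE; edgeR adjusted p = 0.00244), and adjusted p was 0.055 without H3B-8800 replicate 1. Only 5 of its 20 junctions (NM_152259, chr15:89576241-89626955, plus strand) had enough reads and none passed in edgeR's test; they ranged from -1.38 at intron 13 to 0.26 at intron 19.

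TOPBP1, the scaffold that binds TICRR and also activates the checkpoint kinase ATR, had the most spliced reads of the 9, summed over introns. It stood at 220 and 204 CPM with DMSO and 279 and 269 with H3B-8800, and the groups did not overlap. The log2 change was 0.37 ± 0.05 (SE; edgeR adjusted p = 4.29e-05), or 1.29-fold higher. Of its 27 junctions (NM_007027, chr3:133601394-133661768, minus strand), 11 passed as higher and none as lower. The largest change was at intron 8, at 1.12, with 51 and 55 spliced reads against 28 and 33, and the lowest at intron 5, at -0.31. All 11 that passed lay within introns 1 to 21; introns 22 to 27 ranged from -0.11 to 0.40 and none passed.

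CDC7, the kinase that phosphorylates MCM proteins at firing, changed least in size among the fallers. Its level was 22.9 and 24.1 CPM with DMSO and 19.7 and 18.8 with H3B-8800. The log2 change was -0.29 ± 0.11 (SE; edgeR adjusted p = 0.0381), but adjusted p was 0.152 with DESeq2 and 0.0714 to 0.169 when any 1 library was left out. Of its 8 junctions with enough reads (NM_003503, chr1:91501832-91524040, plus strand), intron 10, the last, passed as lower at -1.01, with 21 and 22 spliced reads against 46 and 63; that call was lost with DESeq2 (adjusted p = 0.0971) and without DMSO replicate 2 (0.125).

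Over the 102 junctions of the 9 genes with a mean of at least 10 spliced reads, 39 passed as lower and 17 as higher, against 21.7% and 21.5% of the 66136 junctions tested. Junctions of 1 gene are not independent of each other, so these counts follow a few genes. CDC45 and RECQL4 gave 15 and 12 of the lower junctions. The higher ones were all of GINS1 (6) and TOPBP1 (11). Without either H3B-8800 library no junction of any gene passed in edgeR's test, and at an unadjusted p under 0.05 the 9 genes then had 34 and 38 lower and 14 higher. DESeq2 gave 27 lower and 11 higher. Scaling by library totals in place of TMM moved the median of all genes from 0.01 to -0.16. Under it the 9 genes kept their directions and calls, with TOPBP1 at 0.19 and GINS1 at 1.09.

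The order of levels changed between the groups. Per listed intron, CDC45 was the second highest of the 9 with DMSO, at 13.1 ± 0.18 CPM (SD, n = 2), and the fifth with H3B-8800, at 2.53 ± 0.15. GINS1 was the sixth with DMSO, at 2.25 ± 0.033, and the third with H3B-8800, at 5.41 ± 0.38. GINS2 was the highest in both groups, at 29.8 ± 0.21 and 14.2 ± 0.13. Neighbours in either order did not overlap between libraries, except GINS4 (0.645 to 0.725) and RECQL4 (0.573 to 0.713) with H3B-8800.

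**Figure D2:**
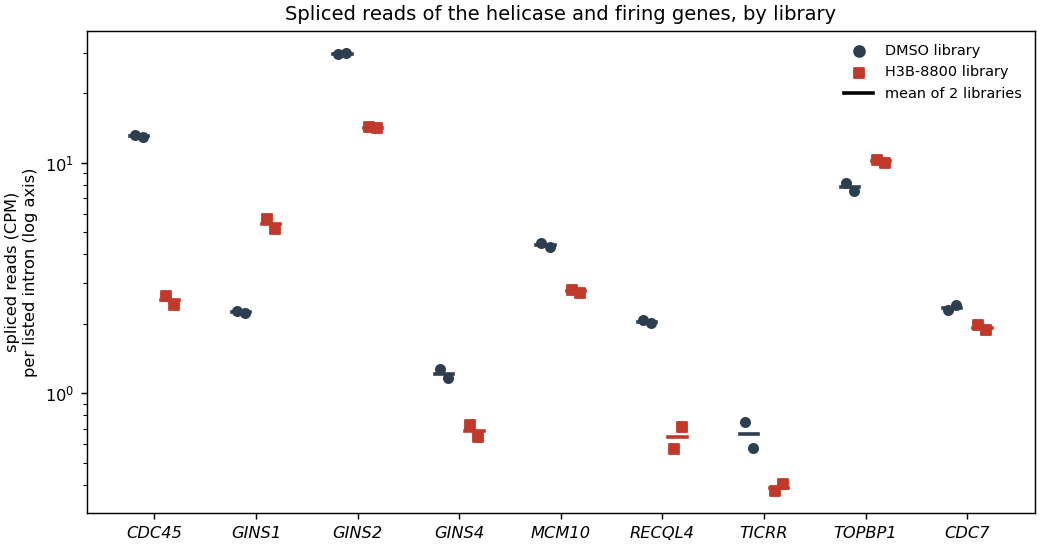
Spliced reads in CPM per listed intron (log axis) of the 9 genes in each library, circles for DMSO and squares for H3B-8800, with the mean of 2 libraries as a line. CDC45 drops from 13.1 to 2.53 and GINS1 rises from 2.25 to 5.41.

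Intronic reads rose relative to spliced reads in most of the genes. The ratio was higher in 7 of the 9 genes, lower in GINS1 and did not pass in TICRR, beside 65.4% higher and 2.35% lower of the 7566 genes tested. The median log2 change of the ratio was 1.86 over the 9 genes and 1.35 over all genes tested. Over introns without an annotated exon, 6 of the 9 genes had enough reads and 5 were higher. GINS2, GINS4 and TICRR could not be tested there. The counts behind these ratios differed from gene to gene. Genes too were filtered by a mean over the libraries of both groups. GINS2, with 9 and 20 intronic reads with H3B-8800 against 6 and 5 with DMSO, entered through its H3B-8800 reads. Without H3B-8800 replicate 2 it had too few reads to be tested. The GINS2 call, counted among the 7, is therefore not independent of the filter.

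In MCM10 the intronic reads themselves grew, from 13 and 30 in the DMSO libraries to 72 and 113 in the treated ones. Per 100 spliced reads that is 12.5 and 18.5 against 1.12 and 2.69, a log2 change of 3.03 ± 0.37 (SE; edgeR adjusted p = 3.37e-06). TOPBP1 gained intronic reads too, with 361 and 339 against 127 and 120. Per 100 spliced reads these were 11.3 and 10.1 against 4.02 and 4.09, a log2 change of 1.40 ± 0.20 (SE; edgeR adjusted p = 2e-05). In both genes the groups lay clear of each other.

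In CDC45 the intronic reads were 58 and 62 in the DMSO libraries and 63 and 76 in the treated ones, while spliced reads went from 2848 and 2791 to 452 and 451. Its ratio was 13.9 and 16.9 intronic per 100 spliced reads against 2.04 and 2.22, a log2 change of 2.85 ± 0.26 (SE; edgeR adjusted p = 2.34e-07). RECQL4 had 38 and 54 intronic reads against 49 and 25, groups that overlap, and a ratio of 29 and 30.5 per 100 against 8.21 and 4.33, a log2 change of 2.26. CDC7 had 52 and 50 against 24 and 41, and a log2 change of the ratio of 1.22. GINS4 had 12 and 26 against 7 and 15, which overlap. Of these, 10 and 21 against 2 and 0 lay in intron 2, where annotated exons lie on both strands. The log2 change of the GINS4 ratio was 1.86, with an adjusted p of 0.0121 in edgeR's test. That call did not hold without H3B-8800 replicate 2 (adjusted p = 0.179) or DMSO replicate 1 (0.103); CDC7 also missed the threshold without DMSO replicate 1 (0.0527).

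GINS2 had few intronic reads, 9 and 20 with H3B-8800 against 6 and 5. Most of its gain was at intron 4, 202 bp long, with 6 and 14 reads against 0 and 0; no fold is given, since both counts are even and may stand for a smaller number of read pairs. The intron was chosen after its values were seen. In GINS1 intronic reads were 45 and 55 against 50 and 39, and the ratio fell from 25.5 and 20.3 to 11.5 and 14.4 per 100 spliced reads. Its log2 change was -0.82 ± 0.33 (SE; edgeR adjusted p = 0.0372). The call was lost with DESeq2 (adjusted p = 0.12), with a filter of 1 read (0.0605), over introns without an annotated exon (0.0506), and without either H3B-8800 library (0.188 and 0.0629) or DMSO replicate 1 (0.165). TICRR had 32 and 15 intronic reads against 16 and 29, which overlap.

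**Figure D3:**
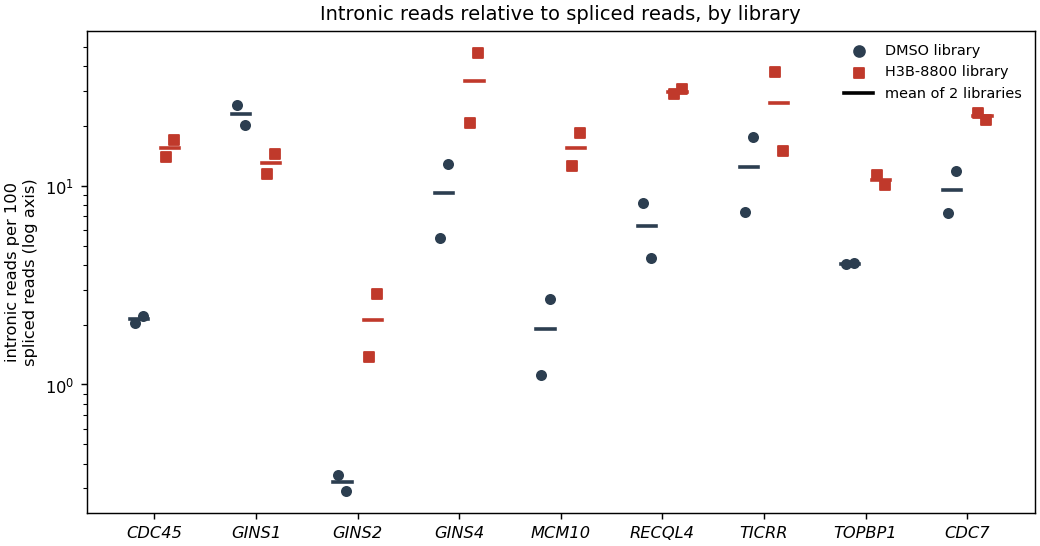
Intronic reads per 100 spliced reads (log axis) of the 9 genes in each library, circles for DMSO and squares for H3B-8800, with the mean of 2 libraries as a line. The H3B-8800 libraries lie above the DMSO libraries except in GINS1, where they lie below, at 11.5 and 14.4 against 25.5 and 20.3, and in TICRR, where the groups overlap.

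At single introns, intronic reads were scaled to library totals; 14 introns of 6 of the genes had a mean of at least 10. Of these 8 were higher and none lower, beside 48.2% and 5.74% of the 12013 introns tested. That mean was over the libraries of both groups, so an intron with few DMSO reads could enter through its H3B-8800 reads. MCM10 introns 8, 9, 16 and 17 and TOPBP1 intron 14, all called higher, had fewer than 10 intronic reads in each DMSO library. Their calls are therefore not independent of the filter. TOPBP1 intron 21, 886 bp long, had the most, with 137 and 100 intronic reads against 33 and 30, a log2 change of 2.01 ± 0.28 (SE; edgeR adjusted p = 0.000189). Its intronic reads made up 8.64% and 9.12% of the reads at this intron in the DMSO libraries and 29.1% and 23.3% in the treated ones. TOPBP1 intron 14, 9142 bp long, had 49 and 45 reads against 7 and 6, a log2 change of 2.93 ± 0.44. TOPBP1 introns 27 and 7 were also higher, at 1.75 and 1.12, while intron 20 of the same gene had 26 and 12 reads against 22 and 27. The call at intron 7 was lost with DESeq2 (adjusted p = 0.105), and TMM scaling gave a log2 change of 0.079. Its intronic-to-spliced ratio did not pass in edgeR's test (log2 change 0.88, adjusted p = 0.144).

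In MCM10 the gain was at 4 introns. Intron 8 had 24 and 36 intronic reads against 4 and 8, intron 9 had 18 and 30 against 4 and 0, intron 16 had 12 and 22 against 0 and 6, and intron 17 had 14 and 20 against 2 and 4. Of the reads at intron 8, 77.4% and 72.0% were intronic with H3B-8800, against 14.3% and 33.3%. The other 14 introns of MCM10 had at most 6 intronic reads in any library. Without H3B-8800 replicate 1 or replicate 2, none of the single introns passed in edgeR's test of intronic reads, with 5 and 4 at an unadjusted p under 0.05. Scaling intronic reads by TMM moved the median over all introns from 1.13 to 0.09 and left 3 of the 8 calls: TOPBP1 introns 14 and 21 and MCM10 intron 9. With a filter of 1 read, under which 65 introns of the 9 genes were tested, 2 passed as higher; DESeq2 gave 5 of 14.

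In the ratio test 13 introns had enough reads of both kinds. Of these 10 were higher and 1 was lower, beside 56.5% and 2.88% of the 9937 introns tested. The filter was again a mean over both groups, and the MCM10 introns and TOPBP1 intron 14 entered through their H3B-8800 reads, as above. With a filter of 1 read, 3 of 65 were higher, and 5 of 10 passed without H3B-8800 replicate 2. CDC45 introns 6 and 7 were higher, at 2.83 and 3.11 on the log2 scale, with intronic reads that overlapped between groups (14 and 36 against 23 and 9 at intron 6). RECQL4 intron 4 was higher at 3.83, with 13 and 12 intronic reads against 18 and 6. GINS1 intron 1 was lower at -1.92 ± 0.62 (SE; edgeR adjusted p = 0.0182), with 14 and 29 intronic reads against 19 and 24 and a spliced count that rose. That last call was lost with DESeq2 (adjusted p = 0.0519), with a filter of 1 read (0.167), without DMSO replicate 2 (0.0919) and without H3B-8800 replicate 1 (0.127).

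**Figure D4:**
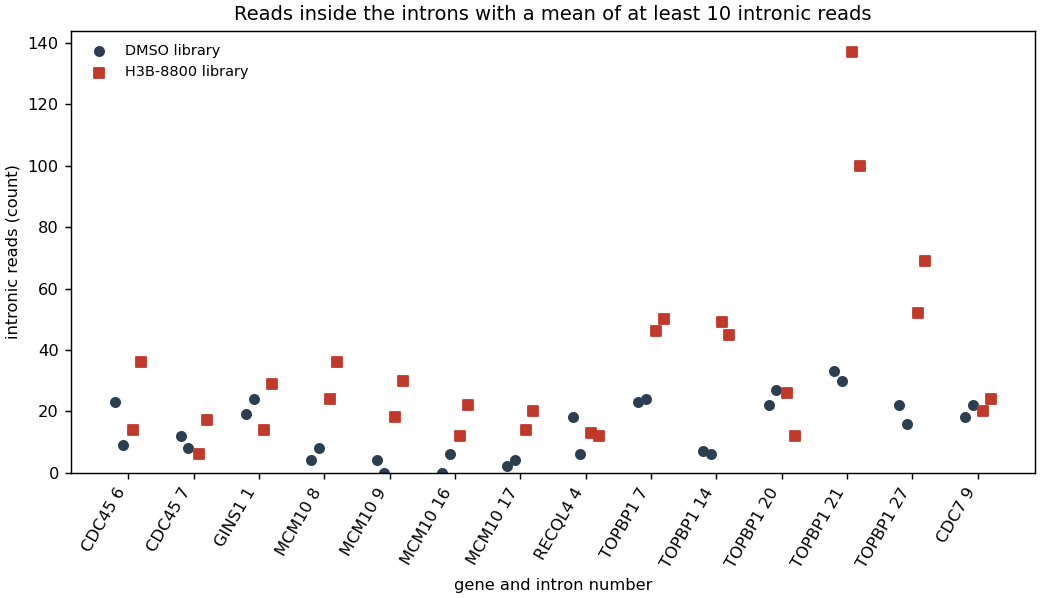
Intronic read counts per library at the 14 introns with a mean of at least 10, circles for DMSO and squares for H3B-8800. At TOPBP1 intron 21 the H3B-8800 libraries stand at 137 and 100 against 33 and 30, while at CDC45 intron 6 the groups overlap.

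Splice sites of 5 introns in 3 genes are shown, chosen to span the responses above among intron ends that an annotated transcript covers. The spliceosome recognises the first bases of an intron and, at its other end, a branch site, a run of pyrimidines and the final AG; H3B-8800 binds the SF3b complex, which takes part in branch site recognition. Sequences are from GENCODE release 29 transcripts that cover the intron end, on GRCh38, and capitals mark the first 2 and the last 3 bases of the intron. The first line is the 3′ end of the TOPBP1 intron with the most intronic reads, and the next is the start of that intron. CDC45 intron 6 had a higher ratio and GINS1 intron 1 a lower one. The short CDC45 intron 1 and TOPBP1 intron 9, shown whole, had 0 intronic reads in both H3B-8800 libraries. With DMSO they had 3 and 0 (CDC45 intron 1) and 5 and 0 (TOPBP1 intron 9). Annotated transcripts that retain the intron cover both whole.
TOPBP1 intron 21, 3′ end (chr3:133617327-133617386, minus strand): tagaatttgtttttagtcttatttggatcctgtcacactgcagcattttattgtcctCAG
TOPBP1 intron 21, 5′ end (chr3:133618193-133618212, minus strand): GTaacaagaaagaaatcttt
CDC45 intron 6, 3′ end (chr22:19505302-19505361, plus strand): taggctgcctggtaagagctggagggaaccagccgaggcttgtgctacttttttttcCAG
GINS1 intron 1, 3′ end (chr20:25413730-25413789, plus strand): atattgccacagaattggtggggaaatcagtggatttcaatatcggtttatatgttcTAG
CDC45 intron 1 (chr22:19480020-19480157, plus strand): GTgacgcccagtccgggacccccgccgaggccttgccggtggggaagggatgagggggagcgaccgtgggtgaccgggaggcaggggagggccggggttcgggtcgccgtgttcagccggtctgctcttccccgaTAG
TOPBP1 intron 9 (chr3:133649634-133649779, minus strand): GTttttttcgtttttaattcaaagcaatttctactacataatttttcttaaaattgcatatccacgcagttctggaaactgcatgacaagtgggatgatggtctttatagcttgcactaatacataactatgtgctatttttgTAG

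In the 20 bases before the last 3, pyrimidines numbered 16 in CDC45 intron 6, 14 in TOPBP1 intron 21 and CDC45 intron 1, and 12 in GINS1 intron 1 and TOPBP1 intron 9. With so few introns these counts describe the sequences and no more. All 5 introns shown overlap exons of other annotated transcripts, because only ends covered by such an exon could be read. These exons can add reads to the intronic count. MCM10 introns 16 and 17 and RECQL4 intron 4 overlap exons too. Of the 127 introns of the 9 genes 34 do, and of all introns 32.1%. Exons of overlapping or antisense genes lie in TICRR, GINS4 and RECQL4, and their intronic reads are uncertain for that reason.

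For the partners of these genes, the shares over all genes tested are again 32.7% lower and 32.8% higher. In the licensing list (the origin recognition complex, CDC6, CDT1, geminin, MCM2 to MCM7 and MCMBP), 13 of 16 genes fell and 2 rose (ORC1 and ORC4), with a median log2 change of -0.57. CDC6, which loads the MCM ring, fell by 2.06 on the log2 scale, from 186 ± 3.0 to 44.6 ± 2.4 CPM (SD, n = 2); MCM7 fell by 1.91 and MCM3 fell by 1.14. In the replisome and fork protection list, 14 of 16 fell and 1 rose (POLE3), with a median of -0.92. POLD1, the catalytic subunit of polymerase delta, fell by 2.53, from 89.6 ± 4.9 to 15.4 ± 1.9 CPM; POLE2, a subunit of polymerase epsilon, fell by 1.78, and the sliding clamp PCNA fell by 1.14.

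Among 10 other firing partners, 5 fell and 4 rose, with a median of -0.21. The cyclins CCNE1 and CCNE2, which activate CDK2 at the start of S phase, had log2 changes of -1.37 and -1.45. DBF4, the activating subunit of CDC7, rose from 199 and 188 CPM to 244 and 216, by 0.25 ± 0.06 on the log2 scale (SE; edgeR adjusted p = 0.00364), and its relative DBF4B rose by 0.66; CDC7 itself, as above, was lower. MTBP, the binding partner of TICRR, stood at 27.3 and 25.5 CPM against 27.8 and 29.6 and did not pass. In the list for helicase unloading 3 of 6 fell and 1 rose (CUL2, a ubiquitin ligase scaffold, by 0.57). FAF1 and VCP had log2 changes of -0.55 and -0.29. LRR1, the adaptor that directs the CUL2 ligase to the CMG helicase, was low and went from 8.14 and 6.47 CPM to 3.67 and 2.10. In the E2F family list 4 of 6 fell and 1 rose (E2F3): the log2 change was -1.54 for E2F1, -2.63 for E2F8 and -1.46 for MYBL2.

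By spliced level across the 4 libraries, the genes closest to CDC45 among 6694 with a mean of at least 10 CPM were CENPK, QTRT1, PLCB3, CHTF18 and CRTC1. Their distances (Euclidean, on centred log2(CPM + 1)) ran from 0.0619 to 0.123. CENPK encodes a kinetochore protein and CHTF18 a subunit of an alternative clamp loader. Those closest to GINS1 were NIPBL, BMPR1A, EPC1, PAN3 and HAUS6, at 0.0282 to 0.0605. NIPBL loads cohesin and HAUS6 is a subunit of the augmin complex. With 4 libraries in 2 groups, likeness rests mainly on the size of the change between groups.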

How the data were processed

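The authors deposited, for each of the 4 libraries and without a header, 2 counts and 1 RPKM value per intron. Per the submitters' processing notes, HISAT2 2.0.4 was used and hg38 and mm10 were builds. Libraries were strand-specific per the labels' protocols; the way reads were counted is not stated in the sources used here. The deposited RPKM values gave the library totals. The second deposited count minus the first was taken as spliced reads, a reading inferred from the values. After 1 base was trimmed from each end, 99.9% of ranges matched GENCODE 29 introns on GRCh38; coordinates are 1-based.

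Spliced reads were summed per gene and tested with edgeR 4.0.16 (R 4.3.3; quasi-likelihood, TMM, mean of at least 1 CPM). Single introns needed a mean of at least 10 reads over the libraries of both groups, and intronic reads were scaled to library totals. Ratios were tested as the interaction of read kind and treatment, with a term per library. Approximate SEs came from the F statistic, and p-values were adjusted over all features by Benjamini and Hochberg at 0.05. SEs and p-values both rest on the spread between these libraries, which edgeR estimated partly from all features. Alternatives included DESeq2 1.42.0, other scalings and filters, and each library left out. Named introns are the up to 3 with the smallest adjusted p of the ratio, the one with most intronic reads and the extreme junctions; 3 genes per list had the smallest adjusted p. Members and lists were chosen with earlier results of these data known; other genes and introns named were chosen after their values were seen. SDs are between the libraries of a group.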

Additional observations from a re-analysis of the deposited data

How the results depend on the processing

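No gene changed direction at the level of the whole gene in spliced reads or in the intronic-to-spliced ratio. Spliced reads: the count of fallers, 7, was 3 when the median over introns was used and 5 to 6 with 1 library left out. Junctions: higher 17, with DESeq2 11; with 1 library left out, 0 to 15 higher and 0 to 33 lower. Intronic reads of single introns: higher 8, with DESeq2 5, with TMM 3, with a mean of at least 1 read 2, and 0 to 10 with 1 library left out. Intron ratio: higher 10, with a mean of at least 1 read 3, and 5 to 13 with 1 library left out; lower 1, and 0 with DESeq2, with a mean of at least 1 read and at the low end, 0 to 1, with 1 library left out. Gene ratio: lower 1, and 0 with DESeq2, over introns without an annotated exon, and with a mean of at least 1 read; with 1 library left out 0 to 1. Ratio of the 5′ to the 3′ part: higher 2, with DESeq2 0, with a mean of at least 1 read 1, and 0 with any 1 library left out. Junctions that passed as lower went from 39 to 27 with DESeq2. At an unadjusted p under 0.05, DESeq2 had 1 lower intron ratio, 0 lower gene ratios and 2 higher ratios of the 5′ to the 3′ part.

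Signs that changed were of values that did not pass. With TMM scaling of intronic reads: CDC7 intron 9, -0.81; GINS1 intron 1, -0.96; CDC45 introns 6 and 7, -0.32 and -0.76; RECQL4 intron 4, -0.88. With library totals, spliced reads at CDC7 intron 2 gave -0.017 and at MCM10 intron 18 -0.22. With 1 library left out, spliced reads ranged from -0.056 to 0.067 at MCM10 intron 18, -0.54 to 0.40 at TICRR intron 19, -0.68 to 0.16 at TOPBP1 intron 5 and -0.096 to 0.46 at GINS4 intron 3; intronic reads from -0.47 to 0.48 at GINS1 intron 1, -0.050 to 1.54 at CDC45 intron 6, -0.98 to 0.23 at TOPBP1 intron 20 and -0.43 to 1.14 at RECQL4 intron 4; and the ratio from -0.93 to 0.29 at TOPBP1 intron 20.

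Libraries with the same replicate number showed no sign of pairing (correlation of deviations 0.049 over 9468 genes). With 2 libraries per group, this cannot show whether they were paired by design. With the replicate block, 2 genes were higher and 7 lower in spliced reads, junctions gave 17 and 40, single introns 8 and 0, intron ratios 10 and 1, gene ratios 8 and 1, as TICRR then passed, and the 5′ to 3′ ratio 2 and 0.

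Depth limited GINS4 and TICRR, of which 5 junctions each had enough reads, and the introns, of which 14 of 127 had enough intronic reads.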
